A study of Rattus norvegicus with 12 samples.

Results

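The mRNA levels of 10 RNA-binding splicing regulators were followed in PAC1, a vascular smooth muscle cell line from the rat pulmonary artery, in which RBPMS, RBFOX2 or QKI had been depleted with siRNA. They are the polypyrimidine tract binding genes Ptbp1, Ptbp2 and Ptbp3, the CELF genes Celf1 and Celf2, the HuR gene Elavl1, the TIA genes Tia1 and Tial1, and the STAR family genes Khdrbs1 and Khdrbs3. These 10 genes were taken by symbol from the 33294 rows of the raw count table, as regulators other than the depleted proteins and the Mbnl genes, and all 10 were abundant enough to be tested. The quantity measured is mRNA abundance summed over all isoforms of a gene, so neither protein nor exon choice is measured below.

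The data comprise 12 poly(A)-selected libraries from cells grown with serum in the more differentiated culture regime of this line, in 4 groups of 3. The groups received the negative control siRNA C2 (control), an siRNA against RBPMS (RBPMS-KD), an siRNA against RBFOX2 (labelled FOX2-KD, here RBFOX2-KD) or an siRNA against QKI (QKI-KD). Per the sample labels, every group including control was reverse transfected with 90 pmol of its siRNA, given the same dose after 24 h, and assessed 48 h after that. The study's own description has longer intervals, and the discrepancy was not resolved. The model has limits: it is a single cell line, the study lists 1 siRNA sequence for each of these proteins, and depletion by siRNA leaves part of the target mRNA. The study also reports that control cells of this experiment had reached a lower degree of differentiation than those of its other sequencing experiment.

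Polypyrimidine tract binding proteins recognise pyrimidine-rich RNA and mostly repress exons, among them many of the exons that distinguish smooth muscle from other cells. PTBP1 is the form found in most cells, PTBP2 is best known from neurons, and PTBP1 is known to limit PTBP2 through exon skipping that exposes its mRNA to decay. CELF proteins bind GU-rich sequences and often oppose MBNL proteins in muscle. HuR, encoded by Elavl1, binds U-rich and AU-rich sequences and stabilises many mRNAs. TIA1 and the closely related TIAL1 (TIAR) bind U-rich stretches next to weak donor splice sites, help the U1 particle to find them, and also act in stress granules. SAM68, encoded by Khdrbs1, and SLM2, encoded by Khdrbs3, are STAR proteins, the family to which QKI also belongs.

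The 4 siRNAs are shown as sense strands from 5′ to 3′, copied from the study's list of oligonucleotides, because they are the only designed difference between the groups.
C2: aagguccggcucccccaaaug
RBPMS: ggcggcaaagccgagaaggcgaaca
RBFOX2: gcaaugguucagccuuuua
QK: ggacuuacagcuaaacaac

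Levels are given as CPM, a gene's counts per M counts of its library after TMM scaling. The libraries held 111 to 152 M counts, and a single regulator held between 1759 and 81806 counts in a library. Over 3 libraries of a group, the coefficient of variation of a regulator's CPM lay between 0.322% and 9.14%, with a median of 1.97%. The labels were checked with the targeted genes. Depletion took Rbpms from 40.7 to 7.21 CPM, Rbfox2 from 154 to 37.3 CPM and Qk, which encodes QKI, from 233 to 26.6 CPM (group means), and in each case the 3 libraries of the knockdown lay below those of control. The targets also changed in the other knockdowns, so a group is not a change of 1 regulator alone. Rbpms stood at 56.9% of control in RBFOX2-KD and 71.3% in QKI-KD. Qk stood at 74.5% in RBFOX2-KD and 113% in RBPMS-KD, and Rbfox2 at 92.0% in RBPMS-KD and 90.2% in QKI-KD. Of the 6 smooth muscle markers examined, Acta2, Tagln and Myl9 were abundant in control at 990, 687 and 303 CPM, while Cnn1, Myh11 and Des stood at 6.43, 6.48 and 9.90 CPM.

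Each group was compared with control by edgeR's quasi-likelihood test in a single fit of all 12 libraries, and a gene was called at a Benjamini-Hochberg adjusted p under 0.05 over the 18438 genes tested. In RBPMS-KD, 9 of the 10 regulators were called (4 higher, 5 lower), where 59.4% of all genes tested were called (30.4% higher, 29% lower). In RBFOX2-KD, 8 were called (3 higher, 5 lower), where the share of all genes was 60.3% (30.1% higher, 30.1% lower). In QKI-KD, 8 were called (2 higher, 6 lower), where the share of all genes was 66.9% (32.9% higher, 34% lower). All 10 regulators average more than 5 CPM, and among the 10707 genes that do, the shares called were 75.7%, 74.8% and 80.3% in the same order, so the number of regulators called is close to that of other abundant genes.

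**Figure D1:**
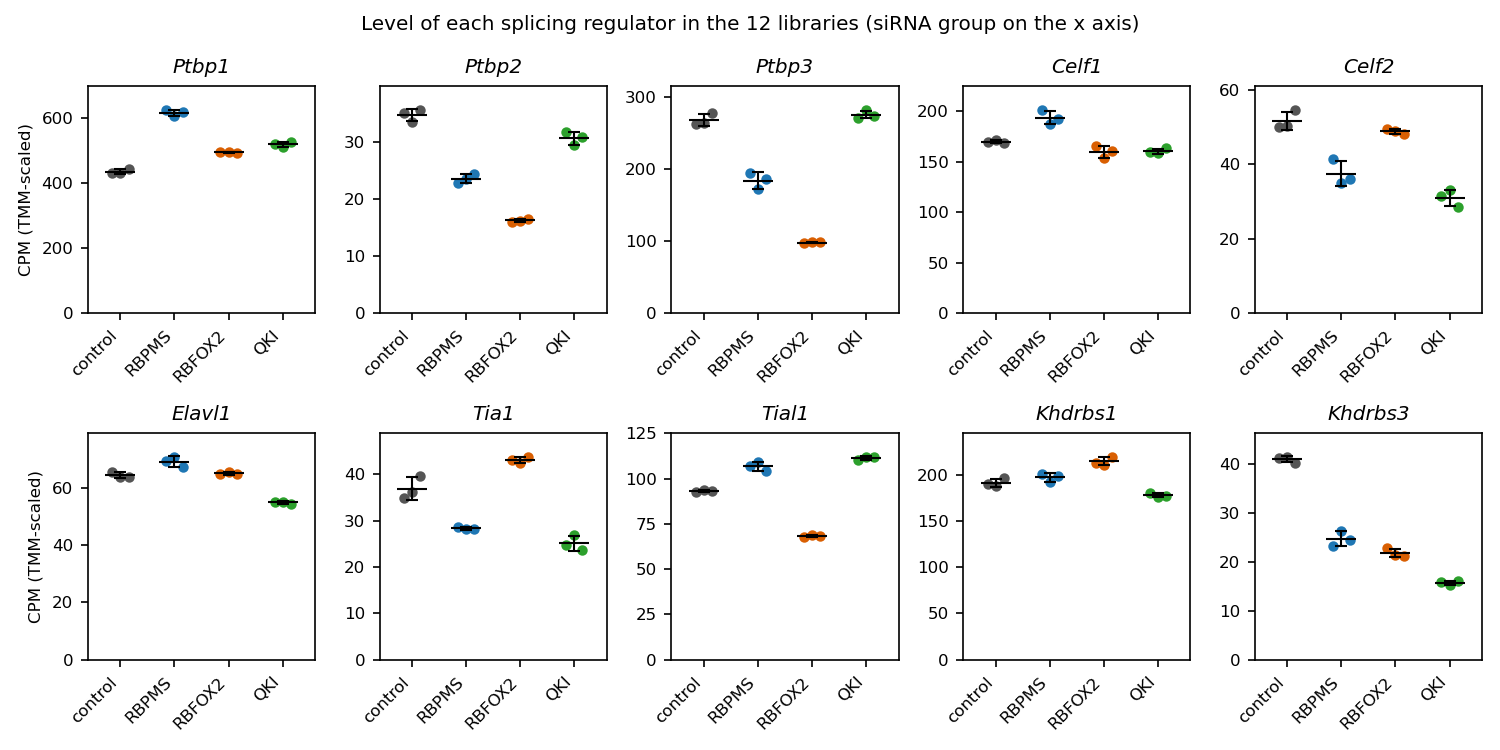
Level of the 10 regulators in the 12 libraries, in TMM-scaled CPM on linear axes that start at 0, with the siRNA group on the x axis. Points are libraries, horizontal lines are group means and bars are the SD of 3 libraries. Ptbp2 and Ptbp3 were lowest in RBFOX2-KD, at means of 16.2 and 97.7 CPM, and Khdrbs3 was lowest in QKI-KD, at 15.7 CPM.

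The sizes of the changes differed more than the number of calls. With the added requirement of an absolute log2 fold change above 1, 0 of the regulators passed in RBPMS-KD (9.66% of all genes tested did), Ptbp2 and Ptbp3 passed in RBFOX2-KD (11.7% of all genes) and Khdrbs3 passed in QKI-KD (17.5% of all genes). The median log2 fold change of the 10 regulators was −0.17 in RBPMS-KD, −0.08 in RBFOX2-KD and −0.14 in QKI-KD, against 0.0085, 0.015 and 0.0070 over all genes tested. Their median absolute log2 fold change was 0.42, 0.20 and 0.24, against 0.26, 0.25 and 0.32 among genes averaging 5 CPM or more. The 3 comparisons share the control libraries, so a gene's changes in them are not independent. These are averages over a culture, in which fewer cells of a kind and less RNA per cell cannot be told apart.

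**Figure D2:**
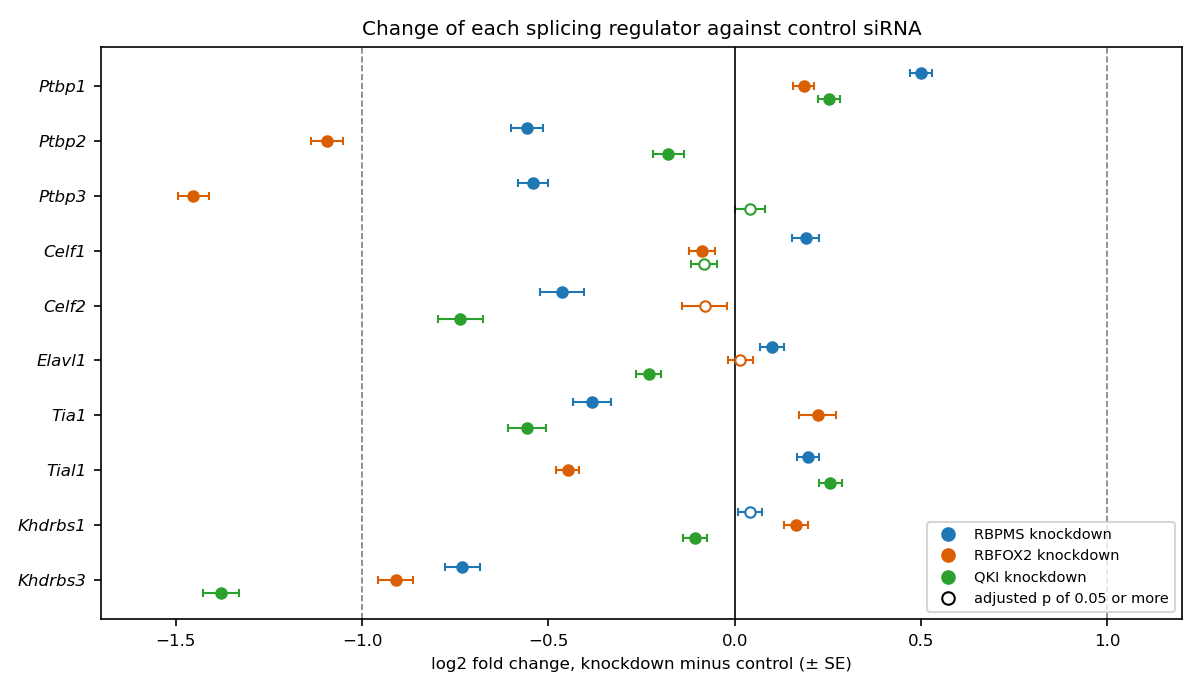
Log2 fold change of the 10 regulators in each knockdown against control (x axis, bars are the SE of the fit), with open symbols for an adjusted p of 0.05 or more and dashed lines at log2 fold changes of −1 and 1. Ptbp3 in RBFOX2-KD (−1.45) and Khdrbs3 in QKI-KD (−1.38) lie farthest from 0, and Tia1 and Tial1 lie on opposite sides of 0 in every knockdown.

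Ptbp1, the general form of the polypyrimidine tract binding protein, rose in every knockdown, and most after depletion of RBPMS. In control its level was 432, 429.6 and 444 CPM in the 3 libraries. It was 623, 605 and 617 CPM in RBPMS-KD, 495, 496 and 493 CPM in RBFOX2-KD, and 519.8, 509.9 and 526 CPM in QKI-KD. The 4 groups did not overlap. The log2 fold changes against control were 0.50 in RBPMS-KD (SE 0.0293, adjusted p 1.96e-10), 0.18 in RBFOX2-KD (adjusted p 3.32e-05) and 0.25 in QKI-KD (adjusted p 6.45e-07). The order of the levels was RBPMS-KD, QKI-KD, RBFOX2-KD and control. RBFOX2-KD and QKI-KD stood closest to each other, at a log2 difference of −0.07 (adjusted p 0.0476), a call that was lost in 12 of 22 other settings.

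Ptbp2, the paralogue known from neurons, fell in every knockdown. The control libraries held 35.1, 33.4 and 35.5 CPM, and the RBFOX2-KD libraries held 16.0, 16.2 and 16.5 CPM, on average 46.8% of control. Levels were 22.9, 23.4 and 24.3 CPM in RBPMS-KD and 31.7, 29.4 and 30.7 CPM in QKI-KD. The groups did not overlap, and the order from high to low was control, QKI-KD, RBPMS-KD and RBFOX2-KD, with an adjusted p of at most 0.00132 between neighbours. The log2 fold change was −1.09 in RBFOX2-KD (SE 0.0436, adjusted p 9.79e-13), −0.56 in RBPMS-KD (SE 0.0430, adjusted p 5.98e-09) and −0.18 in QKI-KD (adjusted p 0.00132). The last of these was not called when libraries were scaled by their totals alone (log2 fold change −0.09, adjusted p 0.0668) or in the authors' normalised table (−0.08, adjusted p 0.117 and 0.113 with pseudocounts of 1 and 10). A test against a fold change of 2 itself, glmTreat, gave an adjusted p of 0.106 for Ptbp2 in RBFOX2-KD.

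Ptbp3, a family member that binds similar pyrimidine-rich RNA, changed more than any other of the 10 regulators in a comparison with control. In control its level was 262, 264 and 277 CPM, and in RBFOX2-KD it was 96.5, 98.4 and 98.2 CPM, which is 36.5% of control or 2.74-fold lower (−1.45 on the log2 scale, SE 0.0413, adjusted p 1.14e-14). In RBPMS-KD it was 194, 172 and 186 CPM, below every control library (log2 fold change −0.54, adjusted p 3.97e-09). In QKI-KD it was 271, 281 and 274 CPM, which overlapped control at a log2 difference of 0.04 (95% interval −0.04 to 0.13, adjusted p 0.387). That difference was called, as 0.10 to 0.13 higher, with library totals alone and in the authors' normalised table. In the main fit, Ptbp3 was the only one of the 3 Ptbp genes without a call in QKI-KD. With library totals alone or the authors' normalised table, Ptbp2 was instead the one without a call. RBFOX2-KD and QKI-KD differed directly in Ptbp3 by −1.49 (SE 0.0414, adjusted p 4.62e-15).

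Celf2, the CELF gene with the larger changes in RBPMS-KD and QKI-KD, was at 50.1, 50.4 and 54.5 CPM in control and fell to 31.4, 33.0 and 28.6 CPM in QKI-KD, which is a log2 change of −0.74 (SE 0.0605, adjusted p 7.62e-09). In RBPMS-KD it was at 41.4, 34.9 and 36.1 CPM, the widest spread of any regulator (coefficient of variation 9.14%), and still below each control library (log2 fold change −0.46, adjusted p 3.57e-06). In RBFOX2-KD it was at 49.4, 49.0 and 48.1 CPM. These values lay just below the control libraries without a call (log2 difference −0.08, 95% interval −0.21 to 0.04, adjusted p 0.253). RBFOX2-KD and QKI-KD differed directly by 0.66 (adjusted p 3.49e-08), and RBPMS-KD stood between them, 0.27 above QKI-KD (adjusted p 8.93e-04).

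Celf1, the more widely expressed CELF gene, which also promotes decay of GU-rich mRNAs, moved within a narrower range. It was at 169.8, 171 and 168 CPM in control and rose to 201, 188 and 192 CPM in RBPMS-KD (log2 fold change 0.19, adjusted p 1.75e-04). In RBFOX2-KD it was at 165, 153 and 160.2 CPM (log2 fold change −0.09, adjusted p 0.0392), a call that was lost in 9 of 22 other settings, leaving out any of the 3 control libraries among them (adjusted p 0.0540 to 0.0940). Leaving out RBFOX2-KD library 2 or 3 also ended it (adjusted p 0.137 and 0.0586). In QKI-KD it was at 159, 159 and 163 CPM (log2 difference −0.08, 95% interval −0.16 to −0.0071, adjusted p 0.0504). This difference was called in 7 of 22 other settings (adjusted p as low as 0.0083, with the 6 libraries of the comparison alone), and it became 0.0036 with library totals alone. RBFOX2-KD and QKI-KD overlapped (log2 difference −0.01, 95% interval −0.08 to 0.07, adjusted p 0.880).

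The 2 TIA genes changed in opposite directions in each knockdown. Tia1 was at 34.9, 36.2 and 39.6 CPM in control, fell to 28.7, 28.1 and 28.1 CPM in RBPMS-KD and to 24.7, 26.8 and 23.7 CPM in QKI-KD, and rose to 43.1, 42.3 and 43.7 CPM in RBFOX2-KD. The log2 fold changes were −0.38 (adjusted p 4.48e-06), −0.56 (SE 0.0508, adjusted p 3.05e-08) and 0.22 (adjusted p 9.36e-04) in that order. The groups did not overlap, and the neighbours RBPMS-KD and QKI-KD differed by 0.17 (adjusted p 0.00728), which was lost without QKI-KD library 3 (0.13, adjusted p 0.0542) and with library totals alone or the authors' normalised table.

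Tial1 had the reverse pattern. It was at 92.7, 93.6 and 93.3 CPM in control, a coefficient of variation of 0.491%, and rose to 107, 109 and 104 CPM in RBPMS-KD and to 110.2, 112 and 112 CPM in QKI-KD. In RBFOX2-KD it fell to 67.9, 68.9 and 68.1 CPM. The log2 fold changes were 0.20 (adjusted p 2.63e-05), 0.26 (adjusted p 8.62e-07) and −0.45 (SE 0.0306, adjusted p 1.10e-09) in RBPMS-KD, QKI-KD and RBFOX2-KD. RBPMS-KD and QKI-KD did not overlap but differed by only −0.06 (95% interval −0.12 to 0.0044, adjusted p 0.0989), and this difference was called in 7 of 22 other settings. The order of levels was thus RBFOX2-KD, control, RBPMS-KD and QKI-KD for Tia1 and its exact reverse for Tial1.

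Khdrbs3, which encodes the tissue-restricted STAR protein SLM2, fell in all 3 knockdowns and most in QKI-KD. It was at 41.2, 41.5 and 40.3 CPM in control, and QKI-KD libraries held 15.8, 15.3 and 16.1 CPM, which is 38.4% of control or 2.60-fold lower (log2 fold change −1.38, SE 0.0483, adjusted p 8.09e-14). In RBFOX2-KD it was at 22.7, 21.4 and 21.3 CPM (log2 fold change −0.91, adjusted p 2.91e-11). In RBPMS-KD it was at 23.2, 26.3 and 24.5 CPM (log2 fold change −0.73, adjusted p 6.29e-10). The 4 groups did not overlap, in the order control, RBPMS-KD, RBFOX2-KD and QKI-KD. The closest neighbours, RBPMS-KD and RBFOX2-KD, differed by 0.18 (adjusted p 0.00410), which was lost with library totals alone (0.08, adjusted p 0.161).

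Khdrbs1, which encodes the widely expressed SAM68, varied within a narrow band. Its levels were 190.2, 188 and 196 CPM in control, 201, 192 and 198 CPM in RBPMS-KD, 213, 211 and 219 CPM in RBFOX2-KD and 180.1, 176 and 177 CPM in QKI-KD. It rose in RBFOX2-KD (log2 fold change 0.16, adjusted p 2.67e-04) and fell in QKI-KD (−0.11, adjusted p 0.00751), and the fall was not called with library totals alone or in the authors' normalised table. RBPMS-KD overlapped control, at a log2 difference of 0.04 (95% interval −0.03 to 0.11, adjusted p 0.277) that became −0.0022 with library totals alone.

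Elavl1, the HuR gene, had its largest change in QKI-KD. It was at 65.7, 64.0 and 63.9 CPM in control, 69.4, 70.9 and 67.2 CPM in RBPMS-KD and 65.1, 65.8 and 64.8 CPM in RBFOX2-KD. QKI-KD stood below all of these, at 55.3, 55.3 and 54.4 CPM. The fall in QKI-KD amounted to −0.23 on the log2 scale (SE 0.0328, adjusted p 7.67e-06). The rise in RBPMS-KD was 0.10 (adjusted p 0.0139) and was not called in 7 of 22 other settings, among them without control library 2 or 3 (adjusted p 0.0506 and 0.0527). RBFOX2-KD overlapped control, at a log2 difference of 0.01 (95% interval −0.05 to 0.08, adjusted p 0.716). RBPMS-KD exceeded RBFOX2-KD by 0.09 (adjusted p 0.0342), a call lost in 9 settings and a difference of −0.013 with library totals alone.

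Because paralogues of a family can bind the same RNA, the balance within each family was also compared, as the ratio of counts of 2 genes in the same library, which no scaling between libraries can change. A ratio of counts of genes of unequal length does not give the ratio of their molecules, so only its change between groups is informative. The ratio of Ptbp3 to Ptbp1 was 0.606, 0.614 and 0.624 in the control libraries and 0.195, 0.198 and 0.199 in RBFOX2-KD. It was 0.311, 0.284 and 0.301 in RBPMS-KD and 0.521, 0.551 and 0.520 in QKI-KD. On the log2 scale it was lower than in control by 1.64 in RBFOX2-KD, 1.04 in RBPMS-KD and 0.21 in QKI-KD, and all knockdown libraries lay below all control libraries.

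The ratio of Ptbp2 to Ptbp1 was lower as well, from a control mean of 0.0796 to 0.0383 in RBPMS-KD, 0.0328 in RBFOX2-KD and 0.0590 in QKI-KD. Thus after depletion of RBPMS, in which no Ptbp gene passed a log2 fold change of 1 on its own, the balance of Ptbp2 to Ptbp1 moved 2.08-fold. The ratio of Celf2 to Celf1 moved from 0.304 ± 0.0168 (SD, n = 3) in control to 0.193 ± 0.0111 in RBPMS-KD and 0.193 ± 0.0165 in QKI-KD, and was 0.306 ± 0.0118 in RBFOX2-KD, overlapping control. The ratio of Tial1 to Tia1 was 2.66, 2.58 and 2.35 in control, 3.74, 3.88 and 3.70 in RBPMS-KD, 4.46, 4.18 and 4.71 in QKI-KD and 1.58, 1.63 and 1.56 in RBFOX2-KD, so that RBFOX2-KD lay on the other side of control from the rest. The ratio of Khdrbs3 to Khdrbs1 was 0.214 in control, 0.125 in RBPMS-KD, 0.102 in RBFOX2-KD and 0.0886 in QKI-KD.

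Each ratio was tested by an exact two-sided permutation test of 3 libraries against 3, whose smallest possible p is 0.1. This p of 0.1 was reached in every family and knockdown with the exception of Celf2 to Celf1 in RBFOX2-KD (exact p = 0.7), and a design of this size cannot give p below 0.05.

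**Figure D3:**
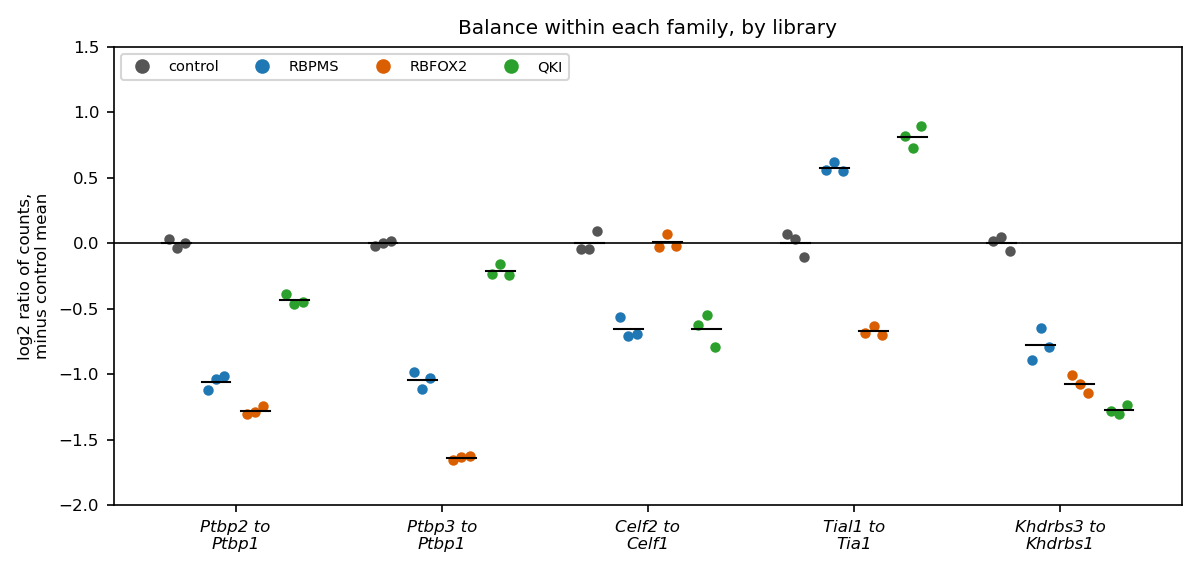
Log2 ratio of counts of 2 paralogues in the same library, minus the mean of the control libraries (y axis), for 5 pairs of genes (x axis). Points are libraries and black lines are group means. The ratio of Tial1 to Tia1 is above control in RBPMS-KD and QKI-KD (0.58 and 0.81) and below it in RBFOX2-KD (−0.67), whereas both Ptbp ratios and the Khdrbs ratio are below control in all 3 knockdowns.

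The changes were also placed among all 10707 genes averaging 5 CPM or more. In RBFOX2-KD, 118 of these genes fell more than Ptbp3 and 263 fell more than Ptbp2. For Khdrbs3, 413 genes fell more in QKI-KD, 419 in RBFOX2-KD and 499 in RBPMS-KD. In RBPMS-KD, 1234 genes rose more than Ptbp1. By contrast, the change of Elavl1 in RBFOX2-KD was larger than that of 3.25% of genes, and the change of Ptbp3 in QKI-KD was larger than that of 7.13%.

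**Figure D4:**
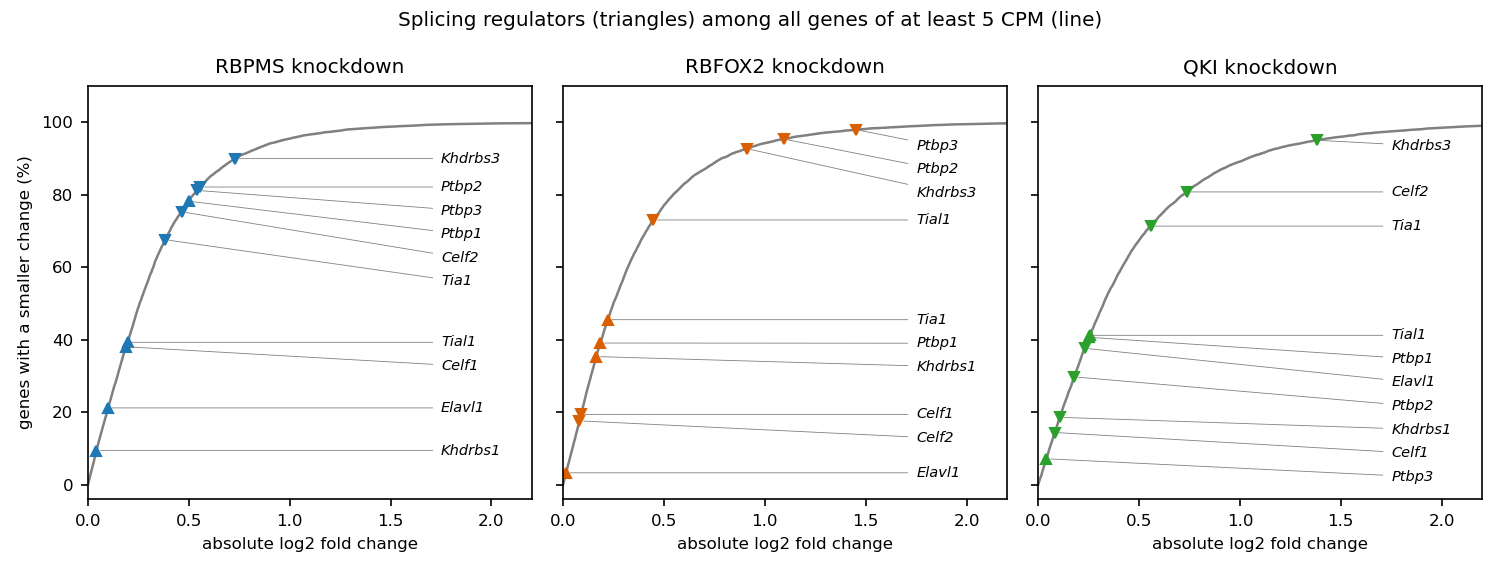
Share of the 10707 genes averaging 5 CPM or more with a smaller absolute log2 fold change (y axis, percent) against the absolute log2 fold change (x axis), 1 panel per knockdown. Triangles are the 10 regulators, pointing up for a higher and down for a lower level than control. Ptbp3 and Ptbp2 are above 97.9% and 95.4% of genes in RBFOX2-KD, and Celf2 is above 80.8% in QKI-KD, where Khdrbs3 lies higher still.

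The knockdowns were then compared with each other directly, in the same fit of all 12 libraries, so that the control libraries entered the scaling and the estimate of spread but not the difference itself. RBPMS-KD and RBFOX2-KD differed in all 10 regulators (7 higher and 3 lower in RBPMS-KD), where 56.7% of all genes tested differed (28.8% higher, 27.9% lower). RBPMS-KD and QKI-KD differed in 9 (7 higher, 2 lower), where 61% of all genes did (32% higher, 29% lower), and Tial1 was the exception. RBFOX2-KD and QKI-KD differed in 9 (5 higher and 4 lower in RBFOX2-KD), where 68.5% of all genes did (35% higher, 33.5% lower), and Celf1 was the exception. The shares of all genes include those below 5 CPM and are not matched to the regulators in level, so the counts are read no further. The largest direct differences were those of Ptbp3, Ptbp2, Tia1 and Tial1 between RBFOX2-KD and QKI-KD, at −1.49, −0.92, 0.78 and −0.70, and that of Ptbp3 between RBPMS-KD and RBFOX2-KD, at 0.91 (SE 0.0410, adjusted p 1.02e-11). Celf2 and Khdrbs3 were higher in RBFOX2-KD than in QKI-KD by 0.66 and 0.47, and the 3 Ptbp genes and Tial1 were lower. Scaling by library totals alone moved the median log2 difference of all genes by −0.13 between RBPMS-KD and QKI-KD, to −0.12, and by −0.099 between RBPMS-KD and RBFOX2-KD, to −0.11, so that differences near 0.1 in these pairs rest on the scaling. The share of all called genes that were higher in RBPMS-KD went with it from 52.5% to 38.1% against QKI-KD and from 50.8% to 36.6% against RBFOX2-KD.

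Markers of smooth muscle also differed between the groups. The summed level of the 6 markers, nearly all of it from Acta2, Tagln and Myl9, was 1971 to 2036 CPM in the control libraries, 937 to 1058 CPM in RBPMS-KD, 668 to 771 CPM in RBFOX2-KD and 1329 to 1413 CPM in QKI-KD. All 6 were called in RBPMS-KD (2 higher, 4 lower), 5 in RBFOX2-KD (1 higher, 4 lower) and 5 in QKI-KD (2 higher, 3 lower). Of all genes tested, 59.4%, 60.3% and 66.9% were called in these comparisons, and 75.7%, 74.8% and 80.3% of those averaging 5 CPM or more. Myh11, which encodes the smooth muscle myosin heavy chain, and Des went the other way from the sum. Myh11 was higher in RBPMS-KD (log2 fold change 0.34), in RBFOX2-KD, where the sum was lowest (2.07-fold, adjusted p 3.45e-09), and in QKI-KD (0.19, adjusted p 0.0474), where it overlapped control. Des rose from 9.90 CPM in control to 15.6 CPM in RBPMS-KD and 19.5 CPM in QKI-KD, without a call in RBFOX2-KD (11.2 CPM). Tagln was not called in QKI-KD, at 704 CPM against 687 CPM in control. The order of these sums differs from that of Khdrbs3 and is the order of Ptbp2 levels, and the part of these markers in the results was not tested. Neuronal markers were low in all groups. Their summed levels over 4 genes were 4.21 to 4.81 CPM in control and 2.34 to 3.29 CPM in the knockdowns. Syt1 and Tubb3 both fell in RBPMS-KD and RBFOX2-KD. In QKI-KD, Syt1 fell from 2.64 CPM in control to 0.431 CPM, while Tubb3 rose from 1.88 to 2.64 CPM. Snap25 was not tested, with at most 4 counts in any library. Immune markers summed to 1.38 to 1.54 CPM in control and 5.40 to 5.92 CPM in QKI-KD, endothelial markers to at most 10.8 CPM in any library. Of 3 epithelial markers, Krt8 held nearly all of the sum, which was 29.4 to 31.6 CPM in control and 71.9 to 73.9 CPM in RBFOX2-KD.

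The 3 regulators with the widest range of group means were Ptbp3, Khdrbs3 and Ptbp2, and for each of them the genes with the most similar profile were listed by Pearson's r of log2 CPM over the 12 libraries, among 10706 genes. The profile of Ptbp3 was most like those of Cdk19 (r = 0.994), Tspyl1 (0.993) and Pigw (0.993). Cdk19, a kinase of the Mediator complex, was at mean levels of 99.9, 73.5, 31.4 and 107.6 CPM in control, RBPMS-KD, RBFOX2-KD and QKI-KD. The profile of Khdrbs3 was most like those of Gpr137b (0.998), Snx25 (0.995) and Tmem9b (0.992), and Gpr137b was at 42.3, 25.7, 22.7 and 15.8 CPM in the same groups. That of Ptbp2 was most like those of Pfn2 (0.995), Tmem33 (0.994) and Slc25a2 (0.993), and Pfn2, an actin-binding profilin, was at 182, 133, 92.8 and 173 CPM.

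Among the 10 regulators themselves, Ptbp2 and Ptbp3 were the most alike pair (r = 0.974), followed by Celf2 and Tia1 (0.918), and Tia1 and Tial1 ran opposite to each other (−0.917). These coefficients describe 12 points that share libraries and fall into 4 groups, and no p is given.

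Further lists of related genes put the 10 regulators in context. Of 8 relatives from the CELF, ELAVL and KHDRBS families, 5 were tested, and Elavl3, Elavl4 and Khdrbs2 had too few counts (at most 18 in a library). The tested relatives were at or below 1.47 CPM in control, the level of Celf3, which was followed by Celf4 at 1.35 CPM. Celf3 rose in RBPMS-KD (log2 fold change 0.51, adjusted p 0.00558) and in QKI-KD (0.47, adjusted p 0.00863) and fell in RBFOX2-KD (−0.56, adjusted p 0.00391). Of the 5, calls were made for 2 in RBPMS-KD, 1 in RBFOX2-KD and 4 in QKI-KD, where the shares over all genes tested were 59.4%, 60.3% and 66.9%. In QKI-KD, Celf6 and Elavl2 passed an absolute log2 fold change of 1, both at mean levels under 1 CPM, and these genes, like Celf3 and Celf4, are named here after their values were seen.

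Of 26 other splicing regulators, 21 were tested. Calls were made for 17 in RBPMS-KD (9 higher, 8 lower), 13 in RBFOX2-KD (5 higher, 8 lower) and 19 in QKI-KD (9 higher, 10 lower). All genes tested were called at 59.4%, 60.3% and 66.9% in these comparisons, split about evenly between higher and lower, and the counts of this list are read no further. Its median log2 fold change was −0.07, −0.12 and 0.10 in the same order. Msi2, which encodes an RNA-binding Musashi protein, was the one abundant gene of the list past an absolute log2 fold change of 1: it fell from 40.2 ± 0.851 CPM in control to 17.1 ± 0.589 CPM in QKI-KD (log2 fold change −1.23, SE 0.0408, adjusted p 3.81e-14), and was at 32.6 CPM in RBPMS-KD and 35.4 CPM in RBFOX2-KD. Nova1, Nova2 and Raver2 also passed it in at least 1 knockdown at levels of at most 0.394 CPM in any group, and are named after their values were seen. Esrp1, Rbm24, Rbm47 and Msi1 had too few counts to be tested, and Rbm4 was listed with no counts. Of the general regulators Pcbp1 and Pcbp2, which bind C-rich RNA, Pcbp2 rose in every knockdown (log2 fold change 0.33, 0.19 and 0.23), whereas Pcbp1 rose in RBPMS-KD and QKI-KD (0.48 and 0.39) and fell in RBFOX2-KD (−0.12, adjusted p 0.00119). Both were chosen for naming after their values were seen.

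**Figure D5:**
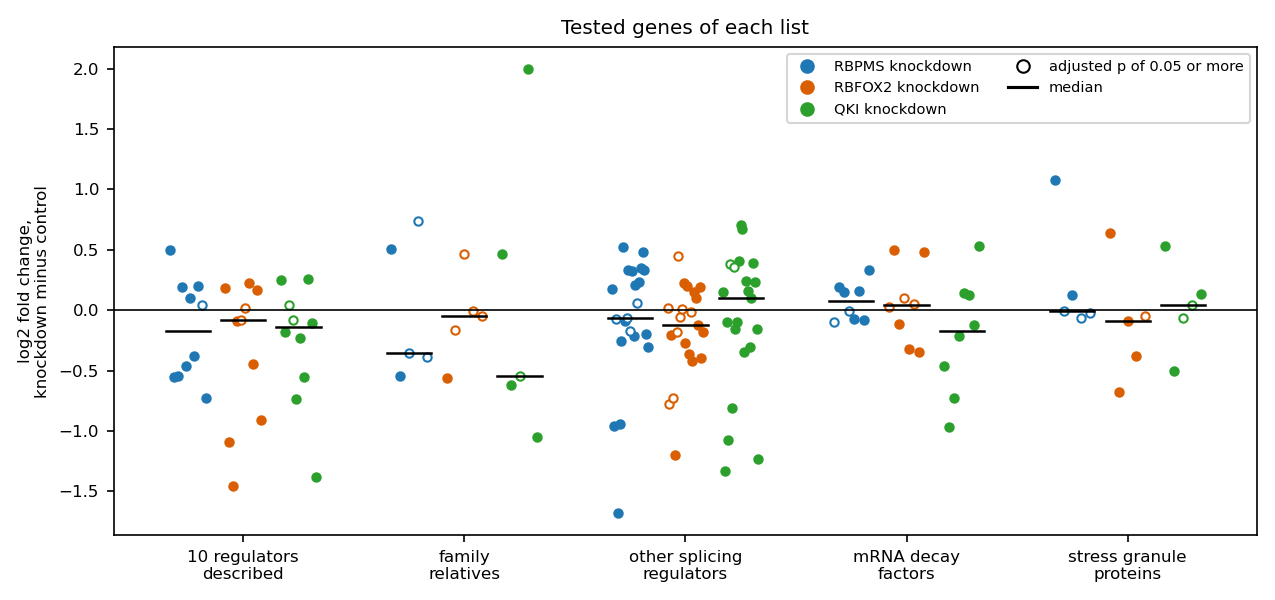
Log2 fold change against control (y axis) of the tested genes of 5 lists (x axis), 1 column of points per knockdown, with open symbols for an adjusted p of 0.05 or more and black lines at the median of a list. The 10 regulators described here have medians of −0.17, −0.08 and −0.14, and every list holds genes on both sides of 0.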

How the data were processed

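Poly(A)-selected, strand-specific libraries were made from total RNA of siRNA-treated PAC1 cells. Groups and replicate numbers were read from the sample titles. The study mentions biological replicates without saying how each library was grown, so p-values measure the spread between these libraries. The authors deposited counts per gene symbol, made with STAR, featureCounts and a RefSeq annotation of mRatBN7.2. The submitters' processing notes name STAR 2.5.2a, edgeR 3.28.1 and DESeq2 1.30.0. The authors also deposited a normalised table of 22320 symbols, a signal made by filtering noise, adding 5 to each count and quantile normalisation, which shrinks the changes of genes with few counts.

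How reads shared by paralogues were assigned, and whether counting used strand, is not given in the sources used here, so values of close paralogues such as Ptbp1 and Ptbp3 or Tia1 and Tial1 are uncertain to that extent. The study describes subsampling of reads to a common depth, whereas the deposited totals differ between libraries (111 to 152 M counts). Even numbers made up 68.1% of the counts from 1 to 19, so a fit on halved counts was run in case both mates of a pair had been counted.

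Counts were fitted with edgeR 4.0.16 in R 4.3.3 over all 12 libraries, with 1 coefficient per group, TMM scaling and filterByExpr, which left 18438 genes with 99.99% of counts (common dispersion 0.00241). Tests were glmQLFit and glmQLFTest, two-sided, with Benjamini-Hochberg adjustment over all genes tested. The SE was derived from the fold change and its F statistic, and 95% intervals from the SE and the t quantile at the fit's total degrees of freedom. Alternatives were RLE size factors, library totals alone, no filter, a mean of at least 200 counts, DESeq2 1.42.0, the replicate number as a block, limma 3.58.1 on the normalised table (pseudocounts 1 and 10), halved counts, glmTreat, the 6 libraries of a comparison alone, and leaving out each library. The fits were tested on simulated data.

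The 10 regulators and the other lists (family relatives, other splicing regulators, mRNA decay factors, stress granule proteins and cell type markers) were chosen with earlier results of these data known. From the other lists, cell type markers excepted, a gene was named where it passed both thresholds in a knockdown against control at a mean of at least 1 CPM. Markers were not named by this rule, so a marker left unnamed may also have passed. For the 3 regulators with the widest range the 3 most correlated genes were named. Of the symbols, 81.0% occur in a RefSeq gene table, all 10 regulators among them, but its assembly, GRCr8, is not that of the counts, and positions are therefore left out.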

Additional observations from a re-analysis of the deposited data

Results flagged for a closer look

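In 7 of 30 combinations of a regulator and a pair of knockdowns, both changes against control were called, in opposite directions, and the direct difference between the 2 knockdowns was also called by edgeR's quasi-likelihood test. Over all genes tested this held for 9.94% of combinations (7.11% for RBPMS-KD with RBFOX2-KD, 8.76% for RBPMS-KD with QKI-KD and 13.9% for RBFOX2-KD with QKI-KD). These shares include genes below 5 CPM and are not matched to the regulators in level. The pairs share control libraries and the count is a description without a test. Direct differences are given as log2 differences of the first knockdown minus the second.

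Tia1 and Tial1, paralogues that bind the same U-rich sites, gave 4 of the 7. Tia1 differed by −0.61 between RBPMS-KD and RBFOX2-KD (SE 0.0505, adjusted p 2.45e-08) and by 0.78 between RBFOX2-KD and QKI-KD (SE 0.0507, adjusted p 3.50e-10). Tial1 differed by 0.64 between RBPMS-KD and RBFOX2-KD (SE 0.0307, adjusted p 2.13e-11) and by −0.70 between RBFOX2-KD and QKI-KD (SE 0.0307, adjusted p 1.59e-12). In each of these the 3 libraries of one knockdown lay above all 3 of the other.

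Celf1 differed by 0.28 between RBPMS-KD and RBFOX2-KD (SE 0.0354, adjusted p 3.52e-06), although its own fall in RBFOX2-KD against control was small (−0.09). Elavl1 differed by 0.33 between RBPMS-KD and QKI-KD (SE 0.0329, adjusted p 1.26e-07), with 0.10 and −0.23 against control. Khdrbs1 differed by 0.27 between RBFOX2-KD and QKI-KD (SE 0.0321, adjusted p 8.30e-07), with 0.16 and −0.11 against control. For each of these genes a call against control was lost in other settings, whereas the direct difference was called in all 22. The calls lost were those of Celf1 in RBFOX2-KD (9 of 22), Elavl1 in RBPMS-KD (7 of 22) and Khdrbs1 in QKI-KD (3 of 22). No explanation of the direct differences was tested.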

How the results depend on the processing

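The count of the 10 regulators called stayed within 1.5 times its value in each of the 6 comparisons and all settings tried. With glmTreat, which tests against a log2 fold change of 1 itself, 1 regulator (Ptbp3) instead of 2 passed in RBFOX2-KD, since Ptbp2 was not called. Single calls changed, not all of them near the threshold, and 5 differences that were small in every setting changed sign. Between RBPMS-KD and QKI-KD, Khdrbs1 differed by 0.15 (edgeR adjusted p 6.83e-04), which was not called with library totals alone or in the authors' normalised table. Ptbp1 differed by 0.25 (edgeR adjusted p 1.19e-06), which was not called in that table with a pseudocount of 10 (limma adjusted p 0.0517). With library totals alone, the log2 difference from control was −0.0022 for Khdrbs1 in RBPMS-KD and 0.0036 for Celf1 in QKI-KD, and Elavl1 differed by −0.013 between RBPMS-KD and RBFOX2-KD. Without RBFOX2-KD library 2, Elavl1 in RBFOX2-KD against control was −0.0026, and leaving out other libraries gave up to 0.026. Celf1 between RBFOX2-KD and QKI-KD ranged from −0.039 to 0.012 when 1 library was left out, the highest again without RBFOX2-KD library 2. The cause was not tested. Over all genes, the number past both thresholds was 1781, 2156 and 3231 in RBPMS-KD, RBFOX2-KD and QKI-KD, against 603, 819 and 1704 with glmTreat and 692, 840 and 1484 with a mean of at least 200 counts, which tests fewer genes. With a pseudocount of 10 on the normalised table it was 1071 in RBPMS-KD and 1295 in RBFOX2-KD. Halved counts changed none of the regulators' calls.

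Replicate numbers are shared between groups, but libraries of the same number did not deviate together from their group means (mean r −0.0226 over 18 pairs, from −0.344 to 0.246, against 0.00855 over 36 pairs of different number). With the replicate number as a block, 10800, 11001 and 12235 genes were called in RBPMS-KD, RBFOX2-KD and QKI-KD, against 10946, 11113 and 12336 without it. Among the regulators, the block moved the adjusted p of Celf1 in QKI-KD to 0.0490 and that of Ptbp1 between RBFOX2-KD and QKI-KD to 0.0586, and it changed no other call. RBPMS-KD library 2 stood apart from its replicates. The chi-square per degree of freedom between counts of 2 replicates was 57.8 and 45.6 in its pairs. It was 9.27 between RBPMS-KD libraries 1 and 3, and at most 21.5 in the other groups. Without RBPMS-KD library 2, 12926 genes were called in QKI-KD against control. Depth of at least 1759 counts per regulator and library does not limit these values, and 3 libraries per group limit the exact tests of ratios.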

Other observations

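The mRNAs of proteins that share targets or granules with TIA1, TIAL1 and HuR were also counted. Of 5 genes for stress granule proteins tested, 2 were called in RBPMS-KD (2 higher), 4 in RBFOX2-KD (1 higher, 3 lower) and 3 in QKI-KD (2 higher, 1 lower), where 59.4%, 60.3% and 66.9% of all genes tested were called. Among genes averaging 5 CPM or more, as these 5 do, the shares were 75.7%, 74.8% and 80.3%. G3bp1, which encodes the core protein of stress granules, rose in every knockdown and by a log2 fold change of 1.07 in RBPMS-KD (SE 0.0292, edgeR adjusted p 1.30e-14), from 179.8 ± 2.64 to 379 ± 6.25 CPM (SD, n = 3). It reached 279.7 ± 1.79 CPM in RBFOX2-KD and 260.3 ± 1.79 CPM in QKI-KD (log2 fold changes 0.64 and 0.53). Its paralogue G3bp2 fell in RBFOX2-KD and QKI-KD (−0.68 and −0.50, adjusted p 2.41e-12 and 6.17e-11) and was at 249.9 ± 1.91 CPM in RBPMS-KD against 252 ± 3.85 CPM in control (adjusted p 0.782). G3bp2 was chosen for naming after its values were seen. Ataxn2 was not analysed here.

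Of 8 mRNA decay factors, 6 were called in RBPMS-KD (4 higher, 2 lower), 5 in RBFOX2-KD (2 higher, 3 lower) and 8 in QKI-KD (3 higher, 5 lower), and 0 passed an absolute log2 fold change of 1. Among all genes averaging 5 CPM or more, 75.7%, 74.8% and 80.3% were called in the same comparisons. The genes Zfp36, Zfp36l1 and Zfp36l2 encode proteins that bind AU-rich elements and promote decay, and in QKI-KD they fell by 0.46, 0.97 and 0.72 on the log2 scale. Zfp36l1 was at 55.4 ± 3.14 CPM in control, 63.4 ± 4.25 CPM in RBPMS-KD, 78.5 ± 2.33 CPM in RBFOX2-KD and 28.3 ± 1.71 CPM in QKI-KD, so that it rose in RBFOX2-KD (log2 fold change 0.50, adjusted p 3.41e-07) and fell in QKI-KD (adjusted p 5.91e-11). Parn, which encodes a deadenylase, rose in all 3 knockdowns (0.33, 0.48 and 0.53). These 4 genes were chosen for naming after their values were seen.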
